A study of Rattus norvegicus with 8 samples.

Results

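Aminoacyl-tRNA synthetases are the enzymes that load each tRNA with its amino acid before the ribosome uses it. The genes described here are 35 of them, 19 whose enzyme works in the cytosol and 16 whose enzyme works only in mitochondria (symbols ending in 2). For each gene, the probe set whose platform annotation names that symbol alone was used. Such a probe set was found for 34 genes, exactly 1 each, among 18166 named genes on the array. No probe set names Iars2, the mitochondrial isoleucine enzyme, alone, so it has no value here. A mean log2 level of at least 5 over the 8 arrays was required for testing. That left 31 members (19 of 19 cytosolic and 12 mitochondrial) among 8690 tested genes.

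Livers came from male rats of the outbred Sprague-Dawley stock and were profiled on 8 arrays. Rats had received ethanol in the diet over a long period (EtOH) or an equal ration with carbohydrate in its place (pair-fed, CHO). They had been given AM21 or were untreated. AM21 is an oligonucleotide with locked nucleic acid modifications that is antisense to miR-21, a microRNA. AM21 was injected intraperitoneally at 7.5 mg/kg, 72 h ahead of partial hepatectomy (PHx) and once more directly after it. AM21 livers had thus been exposed to 1 injection at 0 h and to 2 at 24 h. Liver was sampled at 24 h after removal of 70% of the organ and at the operation itself (0 h), from the same animals. The 8 groups were thus EtOH AM21, EtOH untreated, CHO AM21 and CHO untreated rats, each at 24 h and at 0 h. Each array held RNA pooled from 3 animals (AM21) or 4 animals (untreated), so the 8 arrays are 4 pools at both times. Variation from animal to animal was therefore not seen. The AM21 and the untreated rats have separate runs of animal numbers, and treatment cannot be told apart from cohort. Sham-operated livers and livers given a control oligonucleotide were not analysed here, so PHx and the passage of a day with surgery cannot be told apart.

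The cytosol and the mitochondrion each translate their own messages and for most amino acids use separate synthetases, both encoded in the nucleus. Glycine and lysine are exceptions, because Gars1 and Kars1 give rise to the enzymes of both compartments. Mitochondria make their glutamine tRNA indirectly: Ears2 loads it with glutamate, and an amidotransferase of Qrsl1, Gatb and Gatc converts that to glutamine. In the cytosol, Eprs1, Iars1, Kars1, Lars1, Mars1, Qars1 and Rars1 sit in a large complex on the scaffolds Aimp1, Aimp2 and Eef1e1, while the other cytosolic enzymes work outside it. Several cytosolic synthetase genes are known targets of the transcription factor ATF4, which acts when amino acids run short, and of MYC. A liver that regrows after PHx has to enlarge its protein mass and divide, which places demand on translation.

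The promoters of the cytosolic and mitochondrial genes were set beside each other for letters bound by these and other general factors. RefSeq sequences of the GRCr8 assembly, reaching 250 bases upstream of the start, gave 1 entry for 32 members (17 cytosolic and 15 mitochondrial). Gars1 and Rars1 have none in the table, and Mars2, which has several, was left out. The C/EBP-ATF response element was searched as TGATGNAA on both strands. It occurred in 5 of 17 cytosolic promoters and in 0 of 15 mitochondrial promoters, against 3.27% of all 27457 promoters and 1.73% of the 7279 that belong to tested genes. All 5 matches were spelled TGATGCAA or its reverse complement TTGCATCA. The E-box CACGTG, the letters that MYC and related factors bind, occurred in 4 of 17 cytosolic promoters (Aars1, Farsb, Iars1 and Vars1) and 0 of 15 mitochondrial ones, against 5.79% of all promoters and 8.68% of those of tested genes. The ETS letters CCGGAAGT, searched on both strands, occurred in 6 cytosolic and 3 mitochondrial promoters, against 3.29% of all promoters and 7.94% of those of tested genes. The promoter stretches of Hars1 and Hars2 overlap and hold the same ETS matches, so these letters count in both totals. The NRF1 palindrome (GCGC, any 2 bases, GCGC) occurred in 3 cytosolic and 2 mitochondrial promoters, against 5.3% of all promoters and 12.3% of those of tested genes. No match of a motif overlapped a match of another motif in the members. A match of letters is a description of the sequence and not a measured binding site.

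The 5 promoters with the response element are shown first, because they share letters that none of the mitochondrial promoters searched has. Each stretch is the 120 bases up to the start used by the table, written 5′ to 3′ on the gene's own strand, with motif matches in capitals. They lie at chr19:55908362-55908481 (plus strand) for Aars1, chr17:15193653-15193772 (minus strand) for Iars1, chr7:65023754-65023873 (minus strand) for Mars1, chr18:60275783-60275902 (minus strand) for Nars1 and chr2:62114803-62114922 (minus strand) for Tars1. For Aars1, Iars1 and Mars1 the annotated gene reaches farther upstream than that start, so all or part of the stretch lies within the gene. The 8 capitals in each are the response element, and in Iars1 the 6 capitals before it are the E-box.
Aars1: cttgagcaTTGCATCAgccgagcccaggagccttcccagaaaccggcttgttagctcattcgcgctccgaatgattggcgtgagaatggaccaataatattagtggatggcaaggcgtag
Iars1: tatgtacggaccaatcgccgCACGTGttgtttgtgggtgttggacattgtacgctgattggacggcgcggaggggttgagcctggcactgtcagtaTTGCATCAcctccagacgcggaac
Mars1: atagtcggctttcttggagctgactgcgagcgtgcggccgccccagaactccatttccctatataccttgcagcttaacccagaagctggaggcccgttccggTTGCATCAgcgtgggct
Nars1: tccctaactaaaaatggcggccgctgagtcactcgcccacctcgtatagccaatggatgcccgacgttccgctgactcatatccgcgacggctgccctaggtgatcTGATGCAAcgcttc
Tars1: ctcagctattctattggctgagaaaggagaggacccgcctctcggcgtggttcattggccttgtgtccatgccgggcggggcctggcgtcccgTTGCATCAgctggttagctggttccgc

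Another 3 stretches are shown, those of Wars1 and Farsb for the 2 highest PHx changes and that of Hars1 for its closely spaced neighbour Hars2. They lie at chr6:133571646-133571765 for Wars1, chr9:87395506-87395625 for Farsb and chr18:28672713-28672832 for Hars1, all on the minus strand. Capitals mark an ETS match in Wars1, an E-box followed directly by an NRF1 match in Farsb, and a pair of ETS matches in Hars1. The annotated genes Hars1 and Hars2, its mitochondrial partner, lie head to head 97 bases apart. Ordered by lowest coordinate, 1 other annotated gene comes between them. Both ETS matches in the Hars1 stretch lie upstream of the start that the table uses for either gene. Part of the Farsb stretch lies within the annotated gene, and part of the Hars1 stretch lies within Hars1 or Hars2 as annotated.
Wars1: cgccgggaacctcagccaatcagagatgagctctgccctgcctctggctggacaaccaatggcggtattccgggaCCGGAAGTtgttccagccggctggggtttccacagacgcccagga
Farsb: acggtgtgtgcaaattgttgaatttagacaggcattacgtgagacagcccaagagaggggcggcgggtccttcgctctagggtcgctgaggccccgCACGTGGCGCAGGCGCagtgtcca
Hars1: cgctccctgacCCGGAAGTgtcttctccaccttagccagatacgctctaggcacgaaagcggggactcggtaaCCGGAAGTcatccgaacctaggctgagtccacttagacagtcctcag

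All values below are log2 levels of the deposited table or log2 differences between them. A level can be compared between arrays for 1 gene but not between genes, because each probe set has its own brightness. Pools are always listed in the order EtOH AM21, EtOH untreated, CHO AM21 and CHO untreated. A member is said to have risen or fallen only where limma's adjusted p (Benjamini-Hochberg over the 8690 genes) was under 0.05. An error after ± is the standard error of the fit unless SD is written. Array medians ran from 4.11 to 4.23, and setting them equal moved the median change of all genes by less than 0.1 in every comparison. Hepatocyte markers stood high on all 8 arrays, with a log2 summed level of 6 markers between 14.38 and 14.41.

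After PHx, 7 of 31 tested synthetases changed, against 28.1% of all tested genes. Among the 19 cytosolic enzymes 4 rose and 2 fell, and among the 12 mitochondrial enzymes 1 fell and 0 rose. Over all tested genes, 15.3% rose and 12.8% fell. The risers were the tryptophan enzyme Wars1, the phenylalanine enzyme's beta subunit Farsb, the valine enzyme Vars1 and the arginine enzyme Rars1. The fallers were the cytosolic methionine enzyme Mars1 and both cysteine enzymes, cytosolic Cars1 and mitochondrial Cars2. The median change was 0.16 over the cytosolic enzymes, 0.08 over the mitochondrial enzymes and 0.0088 over all tested genes. As the arrays are of whole liver, fewer cells of a type and less RNA per cell cannot be told apart.

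**Figure D1:**
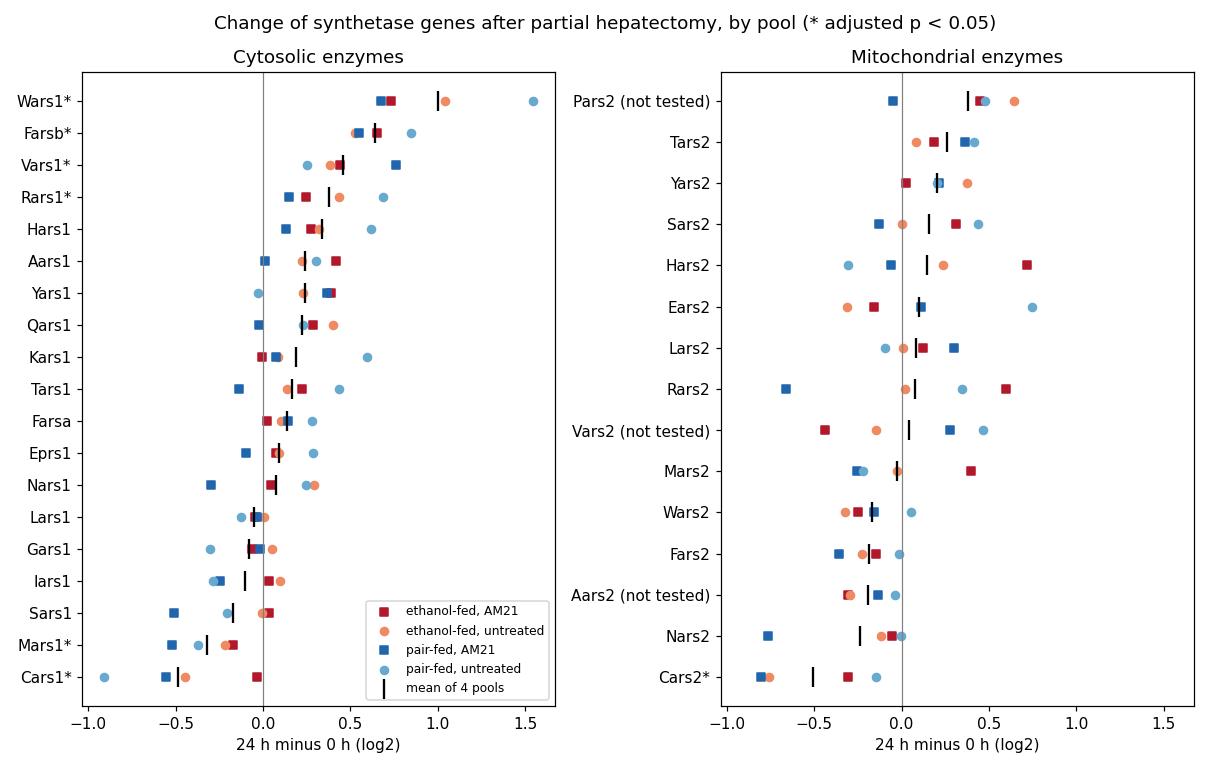
Change of each synthetase after PHx (24 h minus 0 h, log2, horizontal axis), with 1 point for each of the 4 pools and a bar at their mean. Cytosolic enzymes are on the left and mitochondrial enzymes on the right, ordered by mean change. Wars1 stands at the top with all 4 pools between 0.68 and 1.55, and most other members straddle or lie close to 0.

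Wars1, the cytosolic tryptophan enzyme, which interferon gamma is known to induce in human cells, had log2 levels of 7.30, 7.64, 7.31 and 7.90 at 24 h, against 6.57, 6.60, 6.63 and 6.35 at 0 h. All 24 h arrays stood above all 0 h arrays. The change was 1.00 ± 0.16 (adjusted p = 0.00565, 95% interval 0.63 to 1.37), a 2.0-fold rise. By pool it was 0.73, 1.04, 0.68 and 1.55, so the 2 untreated pools had the larger rises. Its mitochondrial partner Wars2, which lies just above the level minimum with a mean of 5.07, had log2 levels of 5.01, 4.78, 4.97 and 5.17 at 24 h, against 5.26, 5.11, 5.12 and 5.12 at 0 h. Its groups overlapped, and its change was -0.17 ± 0.10 (limma adjusted p = 0.229).

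The cytosolic phenylalanine enzyme consists of an alpha subunit from Farsa and a beta subunit from Farsb. Farsb had log2 levels of 8.15, 8.27, 8.07 and 8.30 at 24 h, against 7.50, 7.74, 7.53 and 7.45 at 0 h. The groups did not overlap, and the rise of 0.64 ± 0.09 (adjusted p = 0.00442) was 1.56-fold. Farsa, the partner subunit, had log2 levels of 6.47, 6.65, 6.77 and 6.64 at 24 h, against 6.44, 6.55, 6.63 and 6.36 at 0 h. It was higher at 24 h in each of the 4 pools, by 0.02, 0.10, 0.14 and 0.28, but its change of 0.14 ± 0.09 did not pass (limma adjusted p = 0.281). The mitochondrial enzyme Fars2, a single chain, had log2 levels of 6.16, 6.23, 6.08 and 6.25 at 24 h, against 6.31, 6.46, 6.43 and 6.26 at 0 h. Here every 24 h array lay below every 0 h array, while the change of -0.19 ± 0.09 did not pass (limma adjusted p = 0.175).

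Vars1, which loads valine, had log2 levels of 5.54, 5.41, 5.68 and 5.75 at 24 h, against 5.10, 5.03, 4.92 and 5.50 at 0 h. It was higher at 24 h within each pool, although the CHO untreated pool at 0 h stood above the EtOH untreated pool at 24 h. The rise was 0.46 ± 0.11 (adjusted p = 0.0218), or 1.37-fold. Its mean level of 5.37 is just above the minimum. Vars2, its mitochondrial partner, lay just below it with a mean of 4.89 and was not tested. Vars2 had log2 levels of 4.86, 4.94, 4.89 and 4.96 at 24 h, against 5.29, 5.09, 4.61 and 4.50 at 0 h. By pool it differed by -0.43, -0.14, 0.28 and 0.46, lower at 24 h in both EtOH pools and higher in both CHO pools.

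Rars1, the arginine enzyme of the cytosolic complex, had log2 levels of 8.39, 8.58, 8.25 and 8.45 at 24 h, against 8.15, 8.15, 8.10 and 7.76 at 0 h. The groups did not overlap, and the rise was 0.38 ± 0.11 (adjusted p = 0.0456), or 1.30-fold. Its mitochondrial partner Rars2 had log2 levels of 6.15, 6.29, 5.85 and 6.49 at 24 h, against 5.55, 6.27, 6.50 and 6.14 at 0 h. By pool Rars2 differed by 0.60, 0.02, -0.66 and 0.34, the widest spread between pools among the mitochondrial enzymes tested, and its change of 0.08 ± 0.20 did not pass (limma adjusted p = 0.81). Hars1, the cytosolic histidine enzyme, narrowly missed the threshold. Its log2 levels were 8.81, 8.96, 8.86 and 8.94 at 24 h, against 8.54, 8.63, 8.73 and 8.32 at 0 h, with no overlap, and its change was 0.34 ± 0.10 (limma adjusted p = 0.0536). Hars2, the neighbour of Hars1 on the chromosome, had log2 levels of 6.01, 6.21, 5.99 and 5.64 at 24 h, against 5.29, 5.97, 6.05 and 5.95 at 0 h and a change of 0.15 ± 0.17 (limma adjusted p = 0.552).

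Cysteine was the amino acid for which the enzymes of both compartments changed. Cars1 had log2 levels of 6.07, 5.82, 5.84 and 5.88 at 24 h, against 6.10, 6.26, 6.39 and 6.79 at 0 h. All 24 h arrays lay below all 0 h arrays, although in the EtOH AM21 pool the difference was only -0.04. The change was -0.49 ± 0.14 (adjusted p = 0.0465). Cars2 had log2 levels of 5.57, 5.36, 5.03 and 5.28 at 24 h, against 5.88, 6.12, 5.83 and 5.43 at 0 h. Its groups overlapped, since the CHO untreated pool at 0 h stood below the EtOH AM21 pool at 24 h. Within each of the 4 pools it was lower at 24 h, with differences of -0.31, -0.76, -0.80 and -0.15. The change was -0.50 ± 0.13 (adjusted p = 0.0341).

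Mars1 loads methionine, also onto the initiator tRNA with which translation starts. It had log2 levels of 7.57, 7.58, 7.34 and 7.61 at 24 h, against 7.74, 7.80, 7.86 and 7.98 at 0 h. The groups did not overlap, and the change was -0.32 ± 0.09 (adjusted p = 0.0472). The mitochondrial methionine enzyme Mars2 had log2 levels of 6.0, 5.75, 5.60 and 5.74 at 24 h, against 5.61, 5.77, 5.86 and 5.96 at 0 h. It was higher at 24 h in the EtOH AM21 pool and lower in the other pools, with a change of -0.02 ± 0.13 (limma adjusted p = 0.906).

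**Figure D2:**
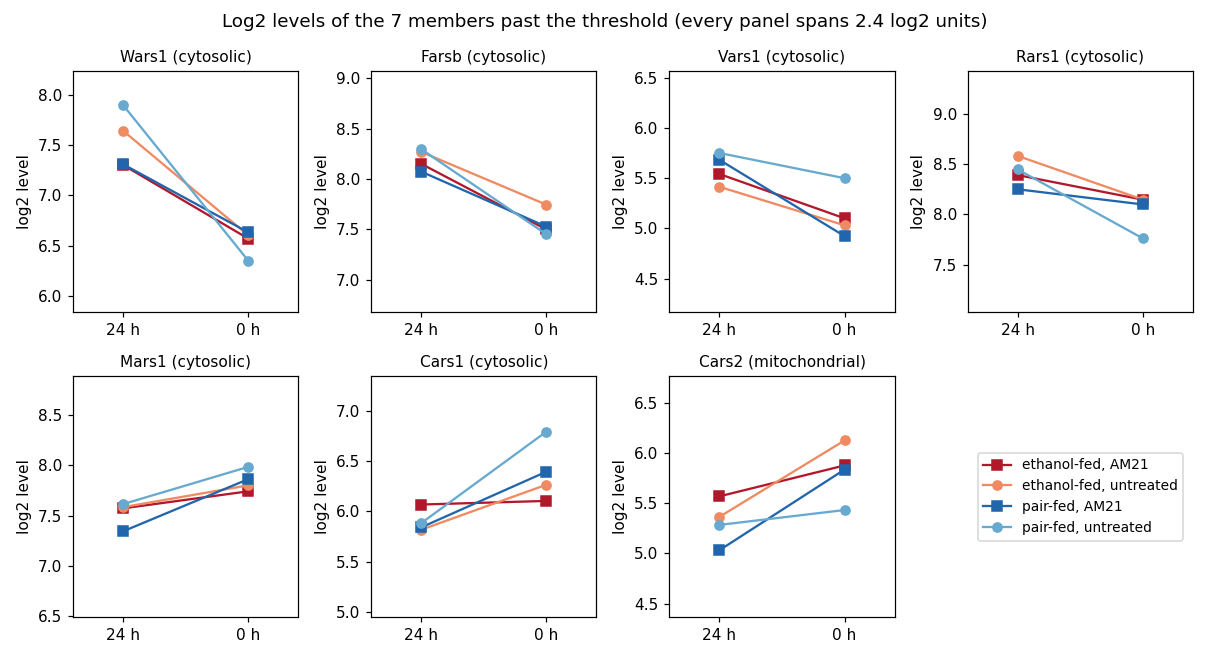
Log2 level (vertical axis) of the 7 members that changed after PHx, at 24 h and 0 h, with a line for each of the 4 pools. Every panel spans the same number of log2 units. The lines slope the same way in all 4 pools for each gene, and in Wars1 the 24 h levels are 7.30 or higher while the 0 h levels are 6.63 or lower.

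Only Wars1 and Farsb of these 7 also passed when any of the 4 pools was left out. Their adjusted p then stayed within the range over all 11 alternatives, 0.00205 to 0.0229 for Wars1 and 0.00171 to 0.0224 for Farsb. The other 5 lost the call without 1 or more pools, which leaves 3 pairs. Without the EtOH AM21 pool 3 members passed (also Cars1), without the CHO AM21 pool 2, without the EtOH untreated pool 2, and without the CHO untreated pool 4 (also Vars1 and Cars2). When all named genes were tested without a level minimum, 2 members passed.

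The cytosolic enzymes that did not pass included several with one direction in most pools. The alanine enzyme Aars1 did not overlap between the times and had a change of 0.24 ± 0.10 (limma adjusted p = 0.113). The tyrosine enzyme Yars1, at 0.24 ± 0.10, and the glutamine enzyme Qars1, at 0.22 ± 0.10, had differences above 0 in 3 of the 4 pools. The remaining cytosolic changes were 0.19 for Kars1 (lysine), 0.16 for Tars1 (threonine), 0.09 for Eprs1 (glutamate and proline), 0.07 for Nars1 (asparagine), -0.05 for Lars1 (leucine), -0.08 for Gars1 (glycine), -0.10 for Iars1 (isoleucine) and -0.17 for Sars1 (serine). Of the 19 cytosolic enzymes, 7 were higher at 24 h in all 4 pools and 2 lower, against 26.2% and 22.8% of all tested genes. Without overlap of the 4 arrays of each time, 5 were higher and 2 lower, against 17.4% and 13.7% of all tested genes.

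Among the mitochondrial enzymes the smallest p after that of Cars2 belonged to the threonine enzyme Tars2. Its log2 levels were 6.76, 6.73, 6.60 and 6.90 at 24 h, against 6.57, 6.65, 6.24 and 6.49 at 0 h, higher at 24 h in each pool, and its change was 0.26 ± 0.09 (limma adjusted p = 0.0821). The tyrosine enzyme Yars2 was also higher at 24 h in each pool. Its log2 levels were 6.23, 6.80, 6.42 and 6.63 at 24 h, against 6.20, 6.42, 6.20 and 6.42 at 0 h, with a change of 0.21 ± 0.09 (limma adjusted p = 0.144). The remaining tested mitochondrial changes were 0.16 for Sars2 (serine), 0.10 for Ears2 (glutamate), 0.08 for Lars2 (leucine) and -0.23 for Nars2 (asparagine). Of the 12, 2 were higher at 24 h in all 4 pools and 3 lower, against 26.2% and 22.8% of all tested genes. Without overlap 0 were higher and 1 lower, against 17.4% and 13.7% of all tested genes.

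Aars2 and Pars2, the mitochondrial alanine and proline enzymes, stayed below the level minimum together with Vars2. Aars2 had log2 levels of 4.64, 4.68, 4.62 and 4.72 at 24 h, against 4.95, 4.98, 4.76 and 4.76 at 0 h, lower on every 24 h array than on any 0 h array. Pars2 had log2 levels of 4.77, 4.35, 4.48 and 4.21 at 24 h, against 4.32, 3.71, 4.54 and 3.73 at 0 h, with overlap between the times. Values this low can hold background signal, and neither gene was tested.

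The cytosolic enzymes were also split by their place in the cell and by their fold, where 15.3% of all tested genes rose and 12.8% fell. The counts of these small groups were not tested against each other. Of the 7 members of the complex, 1 rose (Rars1) and 1 fell (Mars1), with a median change of 0.09. Of the 12 enzymes outside it, 3 rose and 1 fell, with a median of 0.20. Class I enzymes, which share a nucleotide-binding fold, gave 3 rises and 2 falls among 9. Class II enzymes, built on a different fold, gave 1 rise (Farsb) and 0 falls among 9. Eprs1 joins an enzyme of each class in a single chain and is in neither count.

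By pool, the median change of the cytosolic enzymes was 0.07, 0.14, -0.01 and 0.25, and that of the mitochondrial enzymes 0.07, -0.01, -0.14 and 0.02. The all-gene medians of the same pools were 0.02, 0.01, -0.05 and 0.07. The CHO AM21 pool was thus lowest in all of these sets. Without the CHO untreated pool the cytosolic median was 0.08, and without the EtOH AM21 pool the mitochondrial median was -0.071.

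The enzymes of each amino acid were also compared within each pool. There were 16 such pairings, with Fars2 and Eprs1 each used in 2 of them, and in 13 both genes were tested. The cytosolic change was above the mitochondrial change on average in 8 of 13. It was above in all 4 pools in 4 pairings and below in all 4 pools in 3. Tryptophan had the widest gap, with Wars1 above Wars2 by 0.98, 1.36, 0.84 and 1.49, or 1.17 ± 0.31 on average (SD, n = 4 pools). For phenylalanine the gap was the most even, with Farsb above Fars2 by 0.80, 0.75, 0.91 and 0.86, or 0.83 ± 0.07 (SD, n = 4). Farsa was above Fars2 by 0.32 ± 0.14 and Nars1 above Nars2 by 0.31 ± 0.17.

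The pairings that went the other way in all 4 pools were serine, methionine and leucine. The change of Sars1 lay below that of Sars2 in each pool, with a mean difference of -0.33 ± 0.26 (SD, n = 4). The mean difference was -0.29 ± 0.19 for methionine and -0.13 ± 0.15 for leucine. Some pools lay very near 0. In the EtOH untreated pool the difference was -0.0066 for serine and -0.0025 for leucine, and in the CHO untreated pool it was -0.028 for leucine. For cysteine, where both enzymes fell, it was 0.02 ± 0.52, and the pools differed by 0.27, 0.31, 0.25 and -0.76. An exact two-sided sign-flip test over 4 pools cannot give a p below 0.125, which all 7 of these one-way pairings reached, so none could pass the 0.05 threshold.

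**Figure D3:**
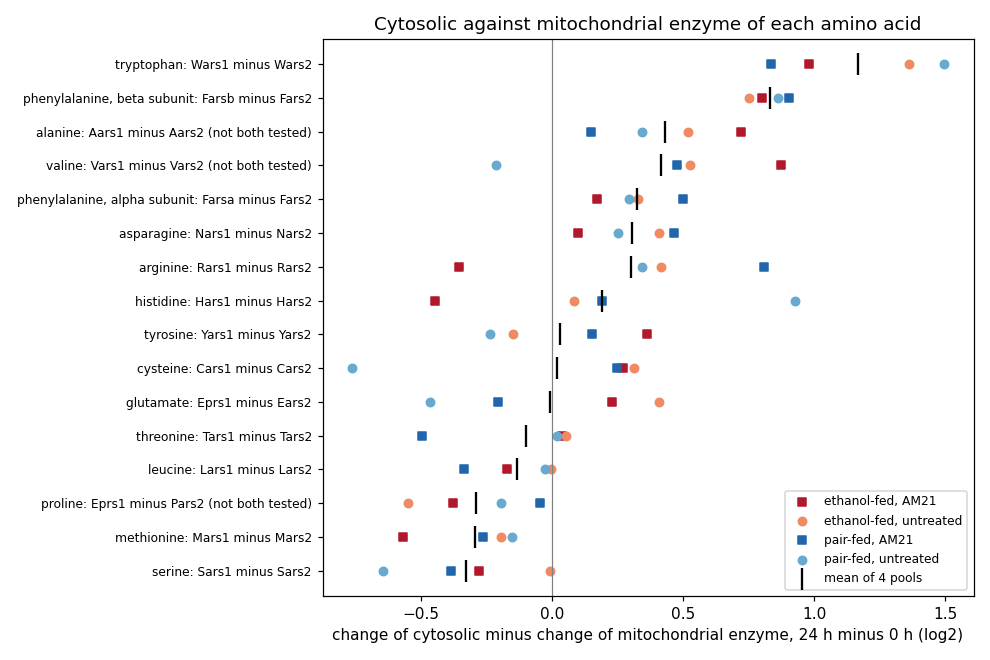
Change after PHx of the cytosolic minus that of the mitochondrial enzyme of each amino acid (log2, horizontal axis), with 1 point for each pool and a bar at the mean. The tryptophan pairing lies between 0.84 and 1.49, the Farsb pairing between 0.75 and 0.91, and the serine pairing between -0.64 and -0.01.

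The partners of these enzymes were described with lists of the translation pathway. For comparison, 15.3% of all tested genes rose and 12.8% fell. Of the 3 scaffold proteins of the synthetase complex, Aimp2 rose by 0.41 ± 0.11 (limma adjusted p = 0.0363) and the other two did not pass. Of 4 proteins that act with the mitochondrial enzymes on loaded tRNA, Qrsl1 rose by 0.40 ± 0.09 (limma adjusted p = 0.0171) and Gatb, another subunit of the same amidotransferase, fell, with a change of -0.49 ± 0.11 (limma adjusted p = 0.0166). Of 16 tested genes that transcribe, process or export tRNA, 4 rose and 1 fell. The risers included Polr3d (0.54 ± 0.11) and Polr3b (0.36 ± 0.10), subunits of the RNA polymerase that makes tRNA, and Tsen15 (0.34 ± 0.08), of the enzyme that splices it. The faller was Maf1, the repressor of that polymerase (-0.44 ± 0.09, limma adjusted p = 0.0127).

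For the translation factors too, the shares over all tested genes were 15.3% risen and 12.8% fallen. Of 6 cytosolic elongation factors 3 rose and 0 fell. Among the risers was Eef1g (0.48 ± 0.08), a subunit of the factor that recharges the carrier of loaded tRNA. Of 10 tested cytosolic initiation factors 4 rose and 0 fell, among them Eif2s1 (0.70 ± 0.10), Eif4a1 (0.48 ± 0.09) and Eif2b4 (0.42 ± 0.09). Eif2s1 is the subunit whose phosphorylation leads to ATF4. Of 6 tested mitochondrial translation factors 0 passed, with a median change of 0.01. The medians were 0.33 over the elongation and 0.19 over the initiation factors.

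Lists built around regulators of synthetase genes, which hold targets and markers of these pathways as well as regulators, were also counted. Of all tested genes, 15.3% rose and 12.8% fell. Of 15 tested genes of the amino acid response, 2 rose, Pycr1 of proline synthesis (0.96 ± 0.11) and the transporter subunit Slc3a2 (0.52 ± 0.11), and Ddit4 fell (-0.45 ± 0.12). The synthetases with the response element in their promoters had PHx changes of 0.24 (Aars1), -0.10 (Iars1), -0.32 (Mars1, which fell), 0.07 (Nars1) and 0.16 (Tars1). Of 8 tested genes of the interferon gamma response, the transcription factor Irf1 rose (0.70 ± 0.16) and the chemokine Cxcl9 fell (-1.57 ± 0.17). Of 7 tested genes of amino acid sensing by mTORC1, Sesn1 (-0.92 ± 0.17) and Deptor (-0.52 ± 0.11), both known inhibitors, fell and 0 rose. Of 3 tested genes of the MYC list, the antagonist Mxi1 fell (-0.45 ± 0.11). Myc itself, chosen after its values were seen, had log2 levels of 6.91, 6.93, 6.20 and 7.34 at 24 h, against 6.27, 7.06, 6.84 and 7.24 at 0 h, and a fitted difference of -0.01 ± 0.20 (limma adjusted p = 0.979).

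Markers of the cell cycle and of other liver cells changed over the same day, when 15.3% of all tested genes rose and 12.8% fell. All 8 proliferation markers rose, with a log2 summed level of 12.06 to 12.93 at 24 h and 8.67 to 10.04 at 0 h. Of 5 tested neutrophil and monocyte markers 2 rose, and the summed level of all 8 with a probe set was 9.10 to 10.27 at 24 h and 8.77 to 9.29 at 0 h. Of 11 Kupffer cell and macrophage markers 1 rose and 3 fell, with summed levels of 11.07 to 11.76 at 24 h and 11.19 to 11.73 at 0 h. Of 6 sinusoidal endothelial markers 3 fell, with summed levels of 9.73 to 10.29 at 24 h and 10.04 to 10.45 at 0 h. The only lymphocyte markers tested, Cd4 and Ccl5, fell, with changes of -0.42 and -0.97. Cd3e, Cd3d, Cd3g, Cd8a, Ms4a1, Cd79b and Nkg7 lay below the level minimum and were not tested. The summed level of all 9, made up mostly of Cd4 and Ccl5, was 8.23 to 8.49 at 24 h and 8.86 to 9.28 at 0 h. Whether lymphocytes became fewer was not tested. Of 7 tested stellate cell and fibroblast markers 2 rose and 2 fell, with summed levels of 9.50 to 10.03 at 24 h and 9.07 to 9.55 at 0 h for all 8. None of 6 hepatocyte markers or 2 tested cholangiocyte markers passed. The part of these cells in the synthetase changes was not tested.

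The diet comparison set ethanol-fed against pair-fed livers over both times and treatments. In limma's fit, 0 of 31 synthetases passed, against 0.46% of all tested genes (0.38% higher and 0.0806% lower). An unadjusted limma p under 0.05 was found for 1 of 31 members, and for 1335 of the 8690 tested genes. The median difference was -0.02 over the cytosolic and 0.08 over the mitochondrial enzymes, against 0.01 over all tested genes. Diet values below are listed as AM21 24 h, untreated 24 h, AM21 0 h and untreated 0 h.

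The gene with the smallest p was Cars2. It had log2 levels of 5.57, 5.36, 5.88 and 6.12 in EtOH livers, against 5.03, 5.28, 5.83 and 5.43 in CHO livers. It was higher with ethanol in each of the 4 matched comparisons, but the groups overlapped, and the difference of 0.34 ± 0.13 did not pass (adjusted p = 0.27, unadjusted p = 0.0287, limma). Ears2, the mitochondrial glutamate enzyme, had log2 levels of 5.38, 5.57, 5.53 and 5.88 in EtOH livers, against 5.30, 5.54, 5.19 and 4.79 in CHO livers. Its difference of 0.39 ± 0.17 came mostly from the untreated 0 h arrays, where it was 1.09, and it did not pass (limma adjusted p = 0.346).

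Lars2, the mitochondrial leucine enzyme, had log2 levels of 5.87, 5.95, 5.75 and 5.94 in EtOH livers, against 5.76, 5.71, 5.46 and 5.80 in CHO livers. Its 4 differences all lay above 0, with a fitted value of 0.19 ± 0.09 (limma adjusted p = 0.366). Nars2 had log2 levels of 5.64, 5.58, 5.69 and 5.70 in EtOH livers, against 5.09, 5.41, 5.85 and 5.41 in CHO livers, with overlap and a fitted difference of 0.22 ± 0.13 (limma adjusted p = 0.488). Together, 3 of 12 mitochondrial enzymes (Cars2, Ears2 and Lars2) were higher with ethanol in all 4 matched comparisons and 0 lower, against 15% and 8.99% of all tested genes. For 0 of 31 members did the EtOH arrays lie wholly above or wholly below the CHO arrays, against 3.48% and 1.39% of all tested genes.

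Among the cytosolic enzymes Kars1 had the smallest p. Its log2 levels were 8.50, 8.50, 8.51 and 8.42 in EtOH livers, against 8.37, 8.54, 8.30 and 7.94 in CHO livers, with a fitted difference of 0.19 ± 0.11 (limma adjusted p = 0.466). Rars1 had log2 levels of 8.39, 8.58, 8.15 and 8.15 in EtOH livers, against 8.25, 8.45, 8.10 and 7.76 in CHO livers. It was higher with ethanol in all 4 matched comparisons, as was Eprs1, and its fitted difference was 0.18 ± 0.11 (limma adjusted p = 0.486). Vars1 had log2 levels of 5.54, 5.41, 5.10 and 5.03 in EtOH livers, against 5.68, 5.75, 4.92 and 5.50 in CHO livers and a fitted difference of -0.19 ± 0.12 (limma adjusted p = 0.52). Eprs1 had log2 levels of 10.37, 10.46, 10.29 and 10.37 in EtOH livers, against 10.14, 10.44, 10.24 and 10.15 in CHO livers and a fitted difference of 0.13 ± 0.09 (limma adjusted p = 0.529).

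For all 31 synthetases the 95% interval of the diet difference lay within 2-fold in either direction, and for all 19 cytosolic ones within 1.5-fold. The interval that reached farthest from 0 belonged to Ears2, -0.02 to 0.79. The fit treats the 8 arrays as independent although they are 4 pools, and the precision is limited by that number. Of the amino acid response list, 1 of 15 rose with ethanol, against 0.38% of all tested genes. It was Trib3 (1.11, limma adjusted p = 0.0261), a pseudokinase induced through ATF4. The 5 synthetases with the response element had diet differences between -0.03 (Tars1) and 0.08 (Nars1). Of 11 Kupffer cell and macrophage markers 2 rose with ethanol, against the same 0.38%. The summed level of the 11 was 11.57 to 11.76 in EtOH and 11.07 to 11.34 in CHO livers. Whether those cells carry any of the synthetase differences was not tested.

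The AM21 comparison set AM21-treated against untreated livers over both diets and times. In limma's fit, 0 of 31 synthetases and 0 of 8690 genes passed (0%). An unadjusted limma p under 0.05 was found for 2 of 31 members, and for 538 of the 8690 tested genes. The median difference was -0.05 over the cytosolic and -0.08 over the mitochondrial enzymes, against -0.03 over all tested genes. Differences below 0 were found for 16 of 19 cytosolic and 9 of 12 mitochondrial enzymes, and for 5298 of the 8690 tested genes. AM21 values below are listed as EtOH 24 h, CHO 24 h, EtOH 0 h and CHO 0 h.

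Yars2, the mitochondrial tyrosine enzyme, had the smallest p. Its log2 levels were 6.23, 6.42, 6.20 and 6.20 in AM21 livers, against 6.80, 6.63, 6.42 and 6.42 in untreated livers. Every AM21 array lay below every untreated array of this gene, and the difference was -0.30 ± 0.09 (unadjusted p = 0.0108, adjusted p = 0.729, limma). Lars1, the cytosolic leucine enzyme, which also senses leucine for mTORC1, had log2 levels of 7.70, 7.63, 7.75 and 7.67 in AM21 livers, against 7.82, 7.93, 7.81 and 8.05 in untreated livers. It did not overlap either, with a difference of -0.21 ± 0.09 (unadjusted p = 0.0437, adjusted p = 0.798, limma). Over all tested genes, 1.27% lay lower in AM21 livers without overlap and 0.357% higher.

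Qars1 had log2 levels of 6.36, 6.28, 6.07 and 6.31 in AM21 livers, against 6.62, 6.58, 6.22 and 6.35 in untreated livers, lower with AM21 in all 4 matched comparisons, with a fitted difference of -0.19 ± 0.09 (limma adjusted p = 0.854). Mars1 was also lower in all 4, at 7.57, 7.34, 7.74 and 7.86 in AM21 livers, against 7.58, 7.61, 7.80 and 7.98 in untreated livers. Its fitted difference was -0.12 ± 0.09 (limma adjusted p = 0.905). In total, 3 cytosolic enzymes and 1 mitochondrial enzyme were lower with AM21 in all 4 comparisons and 0 higher, against 11.2% and 4.4% of all tested genes. Farsb had log2 levels of 8.15, 8.07, 7.50 and 7.53 in AM21 livers, against 8.27, 8.30, 7.74 and 7.45 in untreated livers and a fitted difference of -0.13 ± 0.09 (limma adjusted p = 0.894).

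The other mitochondrial enzymes with the smallest p for AM21 all overlapped between the groups. Lars2 had log2 levels of 5.87, 5.76, 5.75 and 5.46 in AM21 livers, against 5.95, 5.71, 5.94 and 5.80 in untreated livers and a fitted difference of -0.14 ± 0.09 (limma adjusted p = 0.884). Tars2 had log2 levels of 6.76, 6.60, 6.57 and 6.24 in AM21 livers, against 6.73, 6.90, 6.65 and 6.49 in untreated livers and a fitted difference of -0.15 ± 0.10 (limma adjusted p = 0.893). Rars2 had log2 levels of 6.15, 5.85, 5.55 and 6.50 in AM21 livers, against 6.29, 6.49, 6.27 and 6.14 in untreated livers and a fitted difference of -0.28 ± 0.19 (limma adjusted p = 0.893). Its 95% interval, -0.72 to 0.16, reached farthest from 0 in the family, and all 31 lay within 2-fold in either direction.

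**Figure D4:**
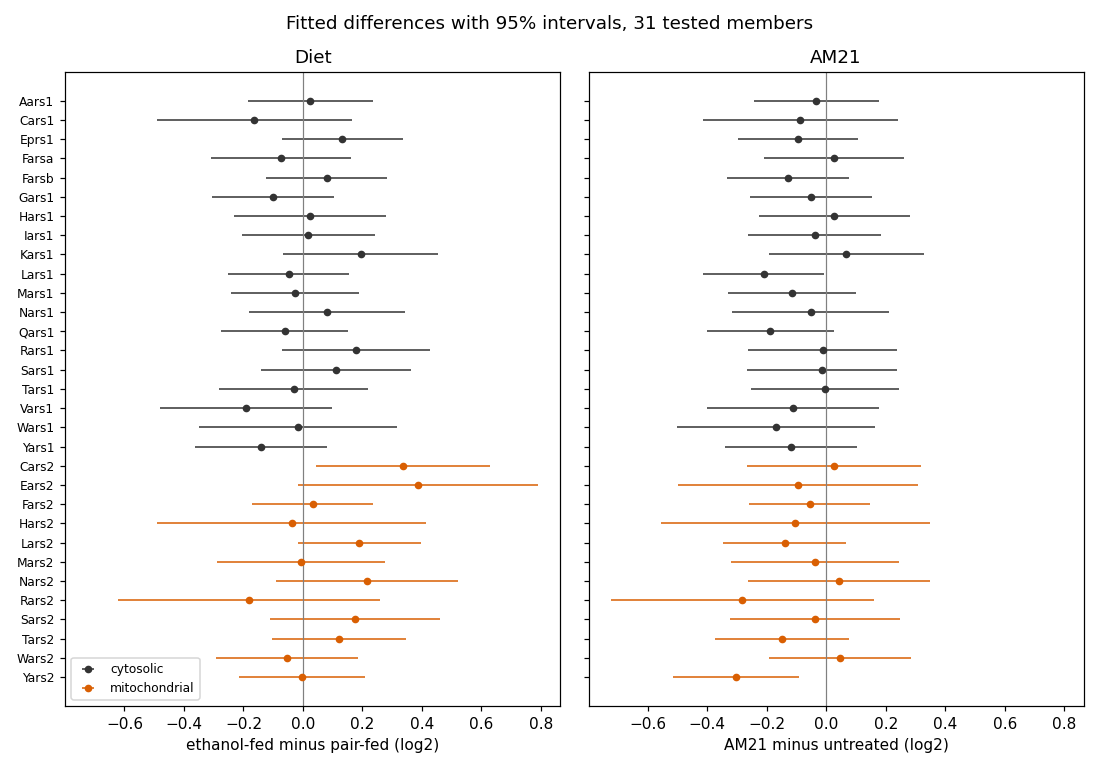
Fitted difference of each tested synthetase with its 95% interval (log2, horizontal axis), EtOH minus CHO on the left and AM21 minus untreated on the right, cytosolic enzymes in grey above mitochondrial enzymes in orange. Diet intervals leave out 0 for Cars2 alone, and AM21 intervals for Lars1 and Yars2; none passed after adjustment.

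Whether the PHx response differed with diet was tested as an interaction, which leaves 1 residual degree of freedom. In limma's fit 0 of 31 synthetases passed, against 0.529% of all tested genes. Of all tested genes, 0.069% passed with the higher response in EtOH livers and 0.46% with the lower. An unadjusted limma p under 0.05 was found for 3 of 31 members, and for 943 of the 8690 tested genes. The 3 members were Hars2, Ears2 and Cars1. Hars2 changed by 0.72 and 0.24 in the EtOH pools (AM21 and untreated), against -0.06 and -0.31 in the CHO pools. The difference in response was 0.66 ± 0.20 (unadjusted p = 0.0111, adjusted p = 0.253, limma). It rested in part on a low EtOH AM21 array at 0 h, at 5.29, where the other 0 h arrays stood between 5.95 and 6.05.

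Ears2 had log2 levels of 5.38, 5.57, 5.30 and 5.54 at 24 h, against 5.53, 5.88, 5.19 and 4.79 at 0 h. Its changes were -0.15 and -0.31 in the EtOH pools, against 0.11 and 0.75 in the CHO pools, a difference of -0.66 ± 0.24 (unadjusted p = 0.0256, adjusted p = 0.351, limma). Cars1 changed by -0.04 and -0.45 in the EtOH pools, against -0.55 and -0.91 in the CHO pools, a difference of 0.49 ± 0.20 (unadjusted p = 0.0379, adjusted p = 0.408, limma). For each of these 3 genes the 2 EtOH pools lay on the same side of the 2 CHO pools. The genes were picked by their p in this same comparison, so that split is not separate support. The fall of Cars1 after PHx, described above, is an average over these unequal changes.

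Of the next genes by p, Sars1 had log2 levels of 8.20, 8.27, 7.89 and 7.99 at 24 h, against 8.17, 8.27, 8.40 and 8.19 at 0 h, Iars1 of 7.90, 7.93, 7.70 and 7.77 at 24 h, against 7.87, 7.83, 7.94 and 8.05 at 0 h, and Kars1 of 8.50, 8.50, 8.37 and 8.54 at 24 h, against 8.51, 8.42, 8.30 and 7.94 at 0 h. Their differences in response between the diets were 0.37 ± 0.21, 0.33 ± 0.20 and -0.30 ± 0.21. For Mars2 and Rars2, whose levels are given above, they were 0.42 ± 0.21 and 0.47 ± 0.34. None of these 5 passed (limma adjusted p from 0.547 to 0.702). For 3 of 12 mitochondrial enzymes the 95% interval reached past 2-fold, with the widest at -0.32 to 1.26 for Rars2.

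Whether the response differed with AM21 was tested in the same fit. Again 0 of 31 synthetases and 0 of 8690 genes passed (0%). An unadjusted limma p under 0.05 was found for 1 of 31 members, and for 604 of the 8690 tested genes. The member was Wars1, which rose by 0.73 (EtOH) and 0.68 (CHO) in AM21 pools, against 1.04 (EtOH) and 1.55 (CHO) in untreated pools. The difference in response was -0.59 ± 0.22 (unadjusted p = 0.0285, adjusted p = 0.658, limma). It is the largest in the family for this comparison, with a 95% interval of -1.10 to -0.08, and did not pass.

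The other genes with the smallest p for this interaction were Cars1 (0.38 ± 0.20), Nars1 (-0.40 ± 0.20) and Rars1 (-0.36 ± 0.21) in the cytosol. In mitochondria they were Hars2 (0.36 ± 0.20), Nars2 (-0.35 ± 0.24), Lars2 (0.25 ± 0.20) and Ears2 (-0.24 ± 0.24). Nars1 had log2 levels of 9.21, 9.32, 8.89 and 9.28 at 24 h, against 9.16, 9.02, 9.18 and 9.04 at 0 h, and Nars2 of 5.64, 5.58, 5.09 and 5.41 at 24 h, against 5.69, 5.70, 5.85 and 5.41 at 0 h. Both asparagine enzymes had their lowest change in the CHO AM21 pool, -0.30 for Nars1 and -0.76 for Nars2. Lars2 had log2 levels of 5.87, 5.95, 5.76 and 5.71 at 24 h, against 5.75, 5.94, 5.46 and 5.80 at 0 h, with overlap between the times.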

How the data were processed

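Amplified, biotin-labelled liver RNA was hybridised to 8 Affymetrix arrays, per the labels' protocols. The deposited values are log2 levels from RMA, run by the authors in Expression Console, per the submitters' processing notes. Neither a program version nor a genome build was given in the sources used here. Because RMA aligns the arrays' distributions, a change common to most genes is hidden. Arrays give no read depth, and having 4 pools limits the precision.

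The platform annotation names 1 symbol for 18511 of 36685 probe sets, several for 575 and none for 17599. By gene identifier, 18394 of the named ones matched the RefSeq genes of GRCr8, and 0 symbols changed. For the 291 genes with several probe sets, the brightest on average over 8 arrays was used. The level minimum for testing was a mean of 5 (log2).

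Models were fitted with limma 3.58.1 (lmFit and eBayes, R 4.3.3), and p-values were adjusted by Benjamini-Hochberg over 8690 genes with a threshold of 0.05. By their animal identifiers, both times of a pool come from the same animals, so the pool entered the PHx model as a fixed block, leaving 3 residual degrees of freedom. Diet and AM21 came from an additive model with time. Its consensus correlation for arrays of a pool, -0.36, was replaced by 0. Interactions with PHx kept the pool as a block (1 residual degree of freedom). For PHx, p-values measure the spread of the changes between the 4 pools, which also differ in diet and treatment. No diet and treatment group has a second pool. With 1 residual degree of freedom, the p-values of the interactions rest largely on the spread that limma borrows from all genes. They do not measure a spread between pools given the same diet and treatment. The diet and AM21 fit counts both times of a pool as independent arrays. Its p-values and intervals therefore mix differences within pools with differences between pools. No p-value measures the spread between animals. The models were tested on simulated data first. Alternatives were the level filter, averaged probe sets, equal array medians, quantile normalization, an intensity trend, other blocks or model terms, and leaving out pools or arrays.

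Every member is named. Every array's value is given for up to 4 cytosolic and 4 mitochondrial members with the smallest p per comparison, for partners of changed enzymes and for genes at the level minimum. From each other list, up to 3 genes per direction with the smallest p among those past the threshold could be named. Members and lists were chosen with earlier results of these data known. A summed marker level is the log2 of the sum of the unlogged values.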

Additional observations from a re-analysis of the deposited data

Results flagged for a closer look

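In each set of 4 matched differences of a tested synthetase, the value farthest from the others was set against Dixon's 95% critical value for 4 samples. Of 93 sets (31 genes in the PHx, diet and AM21 comparisons), 7 passed it, and chance alone gives about 5%. None of these gaps has a replicate check, since every value is a difference between 2 arrays.

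After PHx, the lysine enzyme Kars1 differed by 0.60 in the CHO untreated pool, where the other 3 pools lay between -0.01 and 0.08. The mitochondrial asparagine enzyme Nars2 differed by -0.76 in the CHO AM21 pool, where the others lay between -0.12 and -0.01. For diet, the cytosolic asparagine enzyme Nars1 was 0.32 higher in EtOH than in CHO livers on the AM21 24 h arrays, where the other differences lay between -0.02 and 0.03.

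For AM21, a pair of cytosolic enzymes stood apart on the CHO 0 h arrays. There Hars1 (histidine) was 0.42 higher in AM21 than in untreated livers, with the other differences between -0.14 and -0.07, and Sars1 (serine) was 0.21 higher, with the others between -0.10 and -0.06. On the EtOH 24 h arrays, the mitochondrial methionine enzyme Mars2 was 0.25 higher in AM21 livers, with the others between -0.17 and -0.10. On the same arrays the mitochondrial tyrosine enzyme Yars2 had a difference of -0.57, with the others between -0.22 and -0.21.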

How the results depend on the processing

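The direction of the PHx change of the 7 members that passed was the same under every alternative run. The count of 7 became 2 without a level minimum and 2 to 4 when 1 pool was left out. It was 6 with a level minimum of 6, which took Vars1 and Cars2 out of testing and added Hars1 (limma adjusted p = 0.0435). It was also 6 with array medians set equal, where Rars1 had a limma adjusted p of 0.0602. Quantile normalization and an intensity trend each gave 8, both adding Hars1. Dropping the replicate block gave the same 7 members and changed no other member's call. The median PHx change ran from -0.071 to 0.10 over the mitochondrial members when 1 pool was left out. The median diet difference of the cytosolic members ran from -0.038 to 0.065 when 1 array was left out, with the highest value without the CHO AM21 array at 0 h. For diet, AM21 and both interactions, 0 members passed in limma under every alternative run. Over all genes, the PHx count of 2443 ran from 1466 without the EtOH AM21 pool to 2702 without the replicate block. The other counts over all genes went from 40 for diet to between 0 and 285, and from 46 for the PHx and diet interaction to between 0 and 226, the highest with an intensity trend; dropping the diet by AM21 term, an alternative chosen after seeing the data, gave 2. For the PHx and AM21 interaction the intensity trend gave 51 genes in place of 0, and for AM21 all 2-way interactions gave 8. Without the replicate block the interaction fit is the same by construction (0 members). Leaving out a pool was not run for the interactions, since no residual degree of freedom remains. The small number of pools, and signal near background for the lowest mitochondrial members, limit what these arrays can show.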

Other observations

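A probe set that the annotation assigns to both Qars1 and RGD1562301 was not used for Qars1. Its PHx differences were 0.29, 0.12, -0.03 and 0.05 in the EtOH AM21, EtOH untreated, CHO AM21 and CHO untreated pools, and those of the probe set named for Qars1 alone were 0.29, 0.40, -0.03 and 0.23.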
